A study of Mus musculus with 23 samples.

Results

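A set of 10 intracellular and membrane WNT target genes was followed in the colon of tumor-prone mice: *Axin2*, *Nkd1*, *Rnf43*, *Znrf3*, *Lgr5*, *Ascl2*, *Tnfrsf19*, *Myc*, *Ccnd1* and *Sox4*. They were chosen by symbol, and all 10 of 10 were present among the 55449 genes of the count table. WNT ligands bind Frizzled receptors with their LRP partners, which stops a complex of APC, AXIN and GSK3 kinases from degrading beta-catenin. Beta-catenin then enters the nucleus and switches on target genes with TCF/LEF factors. In the colon this pathway maintains the stem cells at the crypt base, and loss of *Apc* leaves beta-catenin active without a ligand.

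RNA-seq was done on 23 colon libraries of male C57BL/6 mice of genotype Cdx2Apcf/w, which were 6 to 8 weeks old at the start and were fed a 60% high-fat diet (HFD). In these mice the Cdx2 promoter drives Cre recombinase, which deletes a floxed *Apc* allele in cells expressing *Cdx2* while the other allele is wild type. All 6 groups carried this deletion, and no group without it was sequenced. After an antibiotic treatment the mice were colonized with *Bacteroides fragilis* 638R carrying an empty vector (BF BSHlow, bsh- in the labels) or the same strain carrying a bile salt hydrolase gene of another *B. fragilis* strain (BF BSHhigh, bsh+). Normal colon was taken after 2 weeks (4 libraries per strain), and non-tumor colon (4 per strain) and tumors (4 of BF BSHlow and 3 of BF BSHhigh) were taken after 12 weeks. The libraries held between 12401388 and 17903008 expected counts (median 15874872). The 3 columns of the BF BSHhigh tumors carry header names of other tumors and were assigned as a group, so that these replicates are called a, b and c. Levels are CPM, counts scaled to library size after TMM normalization, and a gene was called when edgeR's quasi-likelihood test, fitted over all genes, gave it a Benjamini-Hochberg adjusted p under 0.05. The labels do not tell which libraries came from the same mouse, and p-values measure the spread between these libraries.

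Some tissue markers moved with the groups. The summed level of 6 epithelial markers (*Epcam*, *Cdh1*, *Krt8*, *Krt18*, *Cldn7*, *Cldn3*) was between 10446 and 14458 CPM at 2 weeks, between 7419 and 9822 CPM in non-tumor colon and between 3931 and 6611 CPM in tumors. For 6 smooth muscle markers led by *Myh11* and *Des*, the sum was between 7.09 and 206 CPM, 1513 and 8473 CPM, and 117 and 343 CPM in the same order. That of 6 fibroblast markers was between 47.7 and 230.2 CPM, 314 and 3260 CPM, and 1492 and 3457 CPM. In tumors against non-tumor colon, 1 of the 6 epithelial markers was called higher and 5 lower. All 6 smooth muscle markers were called lower, and of the 6 fibroblast markers 3 were called higher and 1 lower. Of all genes tested, 37.3% were called higher and 34.9% lower. The tumors of the strains separated by 6 goblet cell markers, with a sum of 50.1 to 112 CPM in BF BSHlow and 499 to 4223 CPM in BF BSHhigh, and by 6 colonocyte markers, with 271 to 664 CPM and 793 to 2298 CPM. Replicate a of BF BSHhigh held the highest value of both. The sum of 4 squamous markers (*Krt5*, *Krt13*, *Krt14*, *Trp63*) separated them the other way. It was 33.9 to 133 CPM in BF BSHlow and 19.4 to 30.6 CPM in BF BSHhigh tumors. In bulk tissue, fewer cells of a type and less RNA per cell cannot be told apart. The part of these differences in the results was not tested.

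All members are protein-coding genes, placed here on GRCm38 with GENCODE M21, and their start regions were read from RefSeq promoters (GRCm38.p6), which hold 8 windows for 6 members. *Axin2* (ENSMUSG00000000142.15, protein-coding, plus strand) spans chr11:108920349-108950783. The 250 bases before its start, at chr11:108920099-108920348, overlap no annotated gene and were 69.2% G and C, against a median of 52.4% over all promoters. This window is shown because *Axin2* is a widely used readout of the pathway and rose in every tumor.

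Axin2 promoter, plus strand: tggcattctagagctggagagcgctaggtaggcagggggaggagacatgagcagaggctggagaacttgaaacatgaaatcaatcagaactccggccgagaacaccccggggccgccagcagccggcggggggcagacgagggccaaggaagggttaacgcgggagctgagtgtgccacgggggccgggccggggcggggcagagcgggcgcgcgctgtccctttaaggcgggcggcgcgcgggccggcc

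The TCF/LEF core motif was searched on both strands, as CTTTGAA and its variants (variant CTTTGAT, variant CTTTGTA and variant CTTTGTT), and it is absent from the *Axin2* window. It was found in 1 of the 8 member windows and in 14.8% of all 32851 promoters of the same length. The match is 202 bases before the second RefSeq start of *Tnfrsf19* (ENSMUSG00000060548.13, minus strand, chr14:60963875-61046490). It lies within an intron of the longer *Tnfrsf19* transcripts, at chr14:61038171-61038200, with the match in capitals below.

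Tnfrsf19 second start, minus strand: ctgaatgggggATCAAAGtgacaaactaga

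In tumors, all 10 members rose over non-tumor colon at 12 weeks. The log2 fold changes ran from 1.76 for *Myc* to 5.45 for *Nkd1*, with a median of 2.77, against a median of 0.04 over all 16454 genes tested. Called higher were 10 of 10 members, where 37.3% of all genes tested were called higher. The same 10 were called in BF BSHlow mice alone (background 33.3%) and in BF BSHhigh mice alone (background 29.4%). Every tumor lay above every non-tumor library of its strain for each of the 10 genes, while 56.3% of all genes did not overlap between these groups in BF BSHlow mice and 60.4% in BF BSHhigh mice. All 10 were called in each alternative test, scaling, filter and left-out library. Scaling to epithelial markers moved the median of all genes to 0.74 and that of the members to 3.45.

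**Figure D1:**
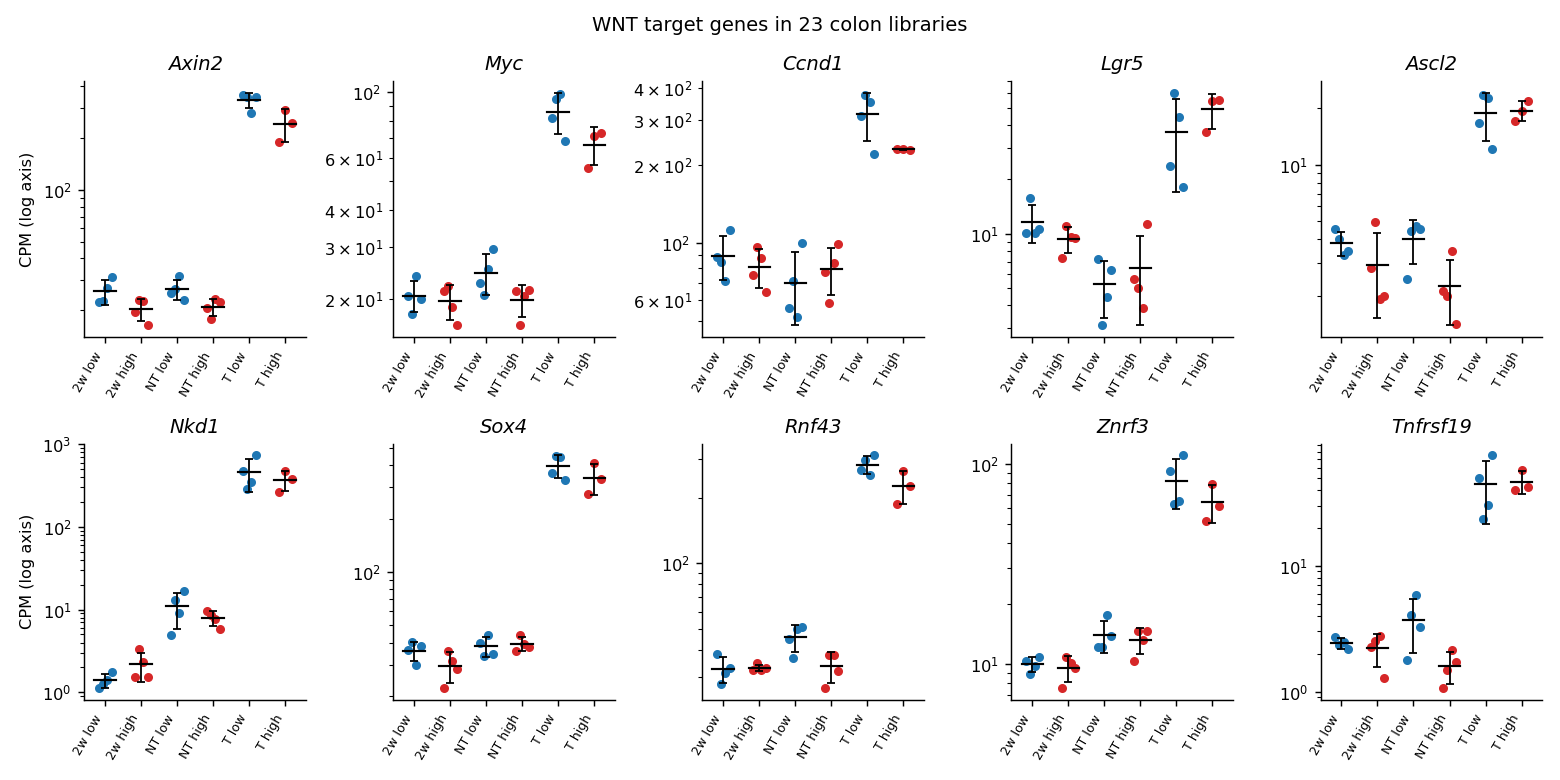
Levels of the 10 members in each of 23 libraries (CPM, log axis), with points for single libraries in BF BSHlow (blue) and BF BSHhigh (red) and black bars for the mean ± SD of each group. Columns are normal colon at 2 weeks (2w), non-tumor colon (NT) and tumors (T) at 12 weeks, and the tumors lie above both other tissues for all 10 genes.

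Of the feedback inhibitors among the members, *Nkd1* changed the most, and it also had the largest change among all members. *Nkd1* (ENSMUSG00000031661.12, chr8:88521354-88594884, plus strand) encodes a protein that binds Dishevelled and dampens the signal. It had 4.89, 13.2, 9.14 and 16.7 CPM in the non-tumor libraries of BF BSHlow mice and 9.50, 8.72, 7.64 and 5.76 CPM in those of BF BSHhigh mice. In tumors it had 469, 286, 347 and 732 CPM with BF BSHlow and 266, 469 and 380.4 CPM with BF BSHhigh. The lowest tumor was thus far above the highest non-tumor library, and the 2 sets did not overlap. The fitted rise was 43.8-fold (log2 5.45, SE 0.29, adjusted p = 2.04e-09).

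*Axin2*, a scaffold of the complex that degrades beta-catenin, had 25.0, 26.6, 31.4 and 22.9 CPM in BF BSHlow and 20.4, 17.7, 23.3 and 22.2 CPM in BF BSHhigh non-tumor colon. Its tumor levels were 355, 349, 281 and 347 CPM with BF BSHlow and 189.7, 293 and 244 CPM with BF BSHhigh. The lowest tumor was replicate a of BF BSHhigh, still far above the highest non-tumor library. This was a 12.0-fold rise (log2 3.58, SE 0.11, adjusted p = 4.48e-11), the smallest adjusted p among the members.

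*Rnf43* (ENSMUSG00000034177.15, chr11:87662722-87735539, plus strand) and *Znrf3* (ENSMUSG00000041961.14, chr11:5276324-5444847, minus strand) encode related membrane ubiquitin ligases that remove Frizzled receptors from the cell surface. *Rnf43* rose from 45.7 ± 6.51 CPM (SD, n = 4) to 283 ± 26.0 CPM (n = 4) in BF BSHlow mice and from 33.7 ± 5.34 CPM (n = 4) to 226 ± 39.3 CPM (n = 3) in BF BSHhigh mice. *Znrf3* rose from 13.9 ± 2.53 to 82.5 ± 22.7 CPM and from 13.1 ± 2.00 to 64.3 ± 13.8 CPM in the same groups. Over both strains the log2 fold changes were 2.68 (SE 0.11, adjusted p = 3.61e-10) for *Rnf43* and 2.42 (SE 0.15, adjusted p = 7.19e-09) for *Znrf3*.

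**Figure D2:**
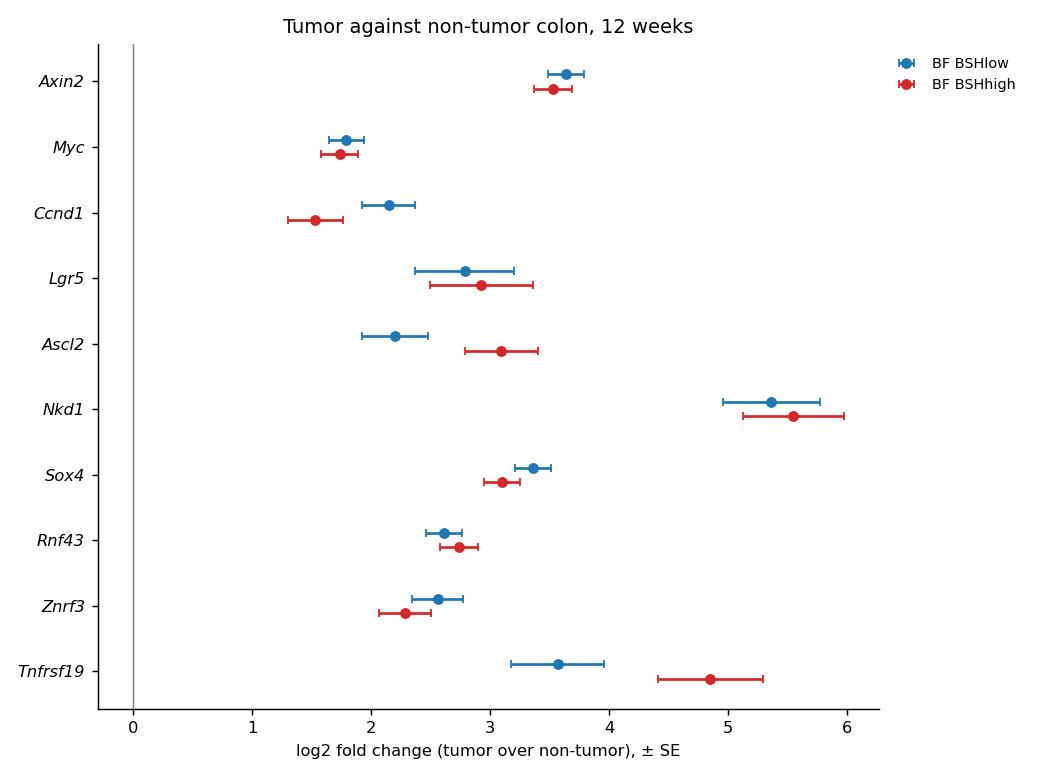
Log2 fold change of each member in tumors over non-tumor colon at 12 weeks, for BF BSHlow (blue) and BF BSHhigh (red) mice, as the edgeR estimate with bars of 1 standard error. All 20 points lie above 0, from 1.53 for *Ccnd1* with BF BSHhigh to 5.54 for *Nkd1* with BF BSHhigh.

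The crypt stem cell genes were low outside tumors. *Lgr5* (ENSMUSG00000020140.15, chr10:115450311-115587780, minus strand), the R-spondin receptor that marks these stem cells, had 7.19, 3.09, 4.43 and 6.26 CPM in BF BSHlow and 5.63, 4.98, 3.88 and 11.3 CPM in BF BSHhigh non-tumor colon. Tumors had 23.8, 60.5, 44.1 and 18.03 CPM with BF BSHlow and 36.5, 54.8 and 55.4 CPM with BF BSHhigh. Replicates 1 and 4 of the BF BSHlow tumors were the lowest of the 7 and still lay above all non-tumor libraries. Its log2 fold change was 2.86 (SE 0.30, adjusted p = 9.30e-07).

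*Ascl2* (ENSMUSG00000009248.6, chr7:142966829-142969264, minus strand), a transcription factor of the same stem cells, rose from between 1.42 and 4.70 CPM in the 8 non-tumor libraries to between 12.1 and 23.7 CPM in the 7 tumors (log2 2.65, SE 0.21, adjusted p = 4.94e-08). *Tnfrsf19*, a receptor of the tumor necrosis factor receptor family also found on crypt base cells, had 1.78, 4.07, 5.80 and 3.23 CPM in BF BSHlow and 1.06, 1.49, 2.12 and 1.72 CPM in BF BSHhigh non-tumor colon. Its tumor levels were 49.6, 23.6, 30.1 and 75.1 CPM with BF BSHlow and 39.7, 57.7 and 42.2 CPM with BF BSHhigh. No tumor came near the non-tumor range, and the rise was 18.5-fold (log2 4.21, SE 0.29, adjusted p = 1.70e-08).

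Among the growth genes, *Myc* (ENSMUSG00000022346.15, chr15:61985391-61990374, plus strand), a transcription factor that drives cell growth, had the smallest change. It went from between 16.3 and 29.5 CPM in non-tumor colon to between 55.5 and 98.7 CPM in tumors (log2 1.76, SE 0.11, adjusted p = 5.63e-09). *Ccnd1* (ENSMUSG00000070348.5, chr7:144929931-144939925, minus strand), which encodes the cyclin that drives entry into the cell cycle, had 56.0, 71.4, 51.9 and 100.4 CPM in BF BSHlow and 76.9, 58.7, 83.4 and 98.8 CPM in BF BSHhigh non-tumor colon. In BF BSHlow tumors it had 311, 375, 352 and 222 CPM, while the BF BSHhigh tumors were nearly equal with 231, 231 and 229 CPM. Its log2 fold change over both strains was 1.84 (SE 0.16, adjusted p = 1.33e-07). *Sox4* (ENSMUSG00000076431.4, chr13:28948919-28953713, minus strand), a transcription factor of progenitor cells, rose from between 33.5 and 44.3 CPM to between 274 and 448 CPM (log2 3.23, SE 0.11, adjusted p = 8.32e-11).

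Per kilobase of exon, the order of the members differed between tissues. In non-tumor colon the highest mean levels were those of *Ccnd1* (15.9 ± 3.98 CPM per kb, SD, n = 8), *Myc* (8.18 ± 1.42) and *Sox4* (8.08 ± 0.843), and the lowest were those of *Lgr5* (0.570 ± 0.250) and *Tnfrsf19* (0.561 ± 0.338). Neither *Myc* and *Sox4* nor *Lgr5* and *Tnfrsf19* differed beyond their spread. In tumors *Nkd1* came first (92.4 ± 34.8 CPM per kb, SD, n = 7) before *Sox4* (77.4 ± 13.4), *Ccnd1* (59.2 ± 13.9), *Axin2* (53.4 ± 11.3), *Rnf43* (39.4 ± 6.43) and *Myc* (28.6 ± 5.61), and neighbours in this order overlapped. *Ascl2* (11.7 ± 2.52), *Tnfrsf19* (9.59 ± 3.66), *Znrf3* (9.46 ± 2.59) and *Lgr5* (4.08 ± 1.60) formed the lower end, where *Lgr5* lay below the range of *Znrf3* and the other neighbours overlapped. *Nkd1* was thus 6th of 10 in non-tumor colon and 1st in tumors.

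The tumors also differed from each other. Replicate 4 of the BF BSHlow tumors was the highest of 7 for 4 members (*Nkd1*, *Znrf3*, *Tnfrsf19* and *Rnf43*) and the lowest for 3 (*Ccnd1*, *Lgr5* and *Ascl2*). Replicate 2 of the same group was the highest for 4 members (*Ccnd1*, *Lgr5*, *Ascl2* and *Sox4*) and the lowest for *Tnfrsf19*. Replicate a of the BF BSHhigh tumors was the lowest of 7 for 6 members and below the mean of the 7 tumors for all 10.

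**Figure D3:**
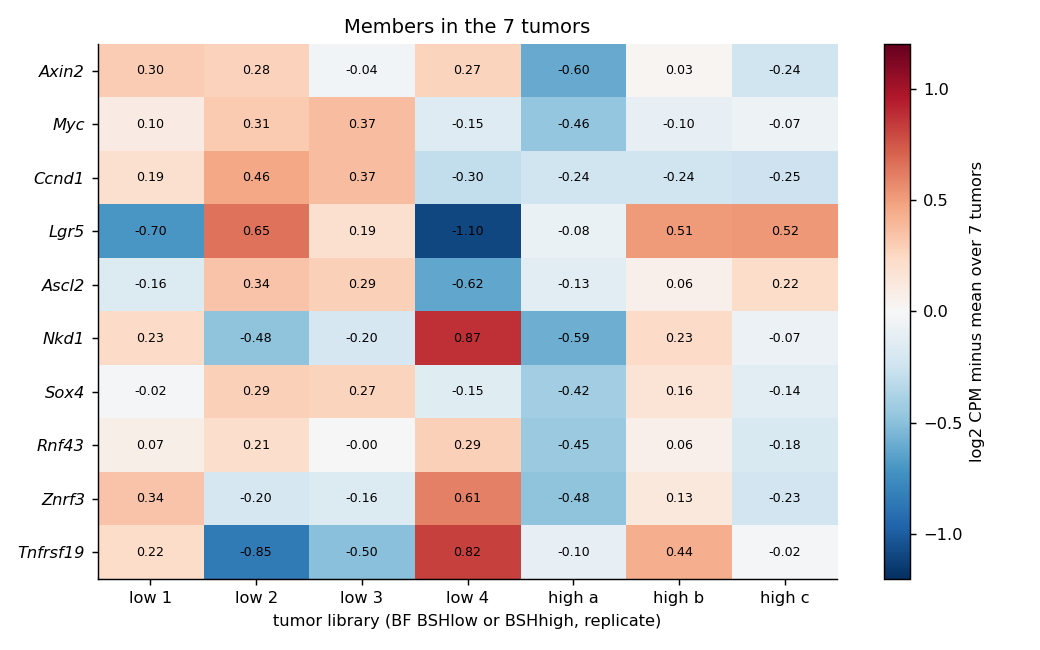
Log2 CPM of each member in each of the 7 tumors minus its mean over them, printed in each cell (red above, blue below). Replicate a of BF BSHhigh is below 0 for all 10 genes, and *Lgr5* and *Nkd1* take opposite signs in replicates 2 and 4 of BF BSHlow.

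Whether the bacterial BSH changed these genes was asked by comparing BF BSHhigh with BF BSHlow within each tissue. In tumors 0 of 10 members were called higher and 0 lower, against 0.470% and 0.0392% of all 15325 genes tested. DESeq2, edgeR's likelihood-ratio test and limma-voom also called 0 members, where they called 741, 670 and 43 genes of the whole table and the quasi-likelihood test called 78 (0 to 254 with 1 tumor left out). At an unadjusted p under 0.05 there were 4 of 10 members and 1946 of 15325 genes. These 4 were *Axin2* (log2 -0.47), *Ccnd1* (-0.46), *Myc* (-0.38) and *Rnf43* (-0.34), with adjusted p = 0.272, 0.292, 0.333 and 0.360. The strains overlapped for all 10 genes, where 12.1% of all genes did not overlap. In the same comparison the 6 goblet markers ran from 2.52 to 7.78 on the log2 scale (median 4.29). The 6 colonocyte markers ran from 0.0035, which is no change, to 6.40 (median 4.52). Called higher were 2 of each. The part of these differences in the members' values was not tested.

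*Axin2* was at 333 ± 34.8 CPM (SD, n = 4) in BF BSHlow and 242 ± 51.7 CPM (n = 3) in BF BSHhigh tumors. For it, *Rnf43* and *Znrf3*, 2 of 3 BF BSHhigh tumors lay below every BF BSHlow tumor. The share of all genes with such a partial separation was not counted. Without replicate a, the log2 difference of *Axin2* was -0.33 (adjusted p = 0.773). The members with positive values were *Lgr5* (0.41, plus or minus 2 SE from -0.35 to 1.18), *Ascl2* (0.04, from -0.41 to 0.50) and *Tnfrsf19* (0.04, from -0.72 to 0.80, and -0.17 when scaled to epithelial markers). For *Nkd1* the difference was -0.32 (from -1.002 to 0.36). Whether 4 against 3 tumors could detect changes as small as these was not tested.

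**Figure D4:**
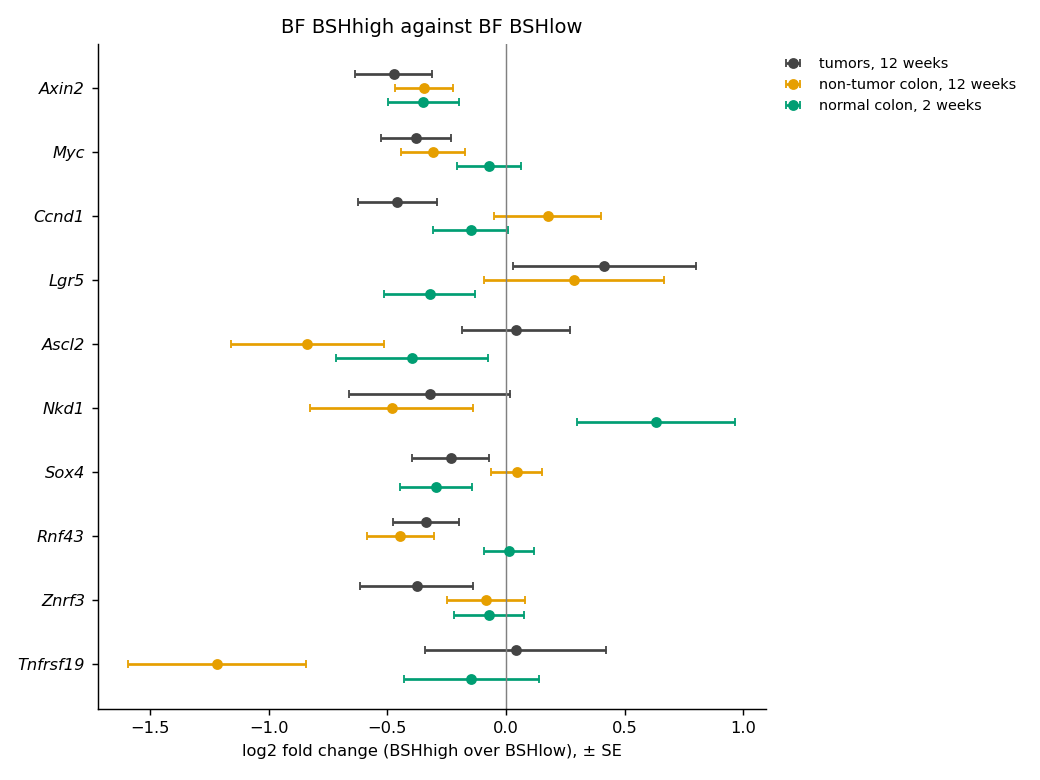
Log2 fold change of each member with BF BSHhigh over BF BSHlow in tumors (grey), non-tumor colon (orange) and normal colon at 2 weeks (green), as the edgeR estimate with bars of 1 standard error. No point was called, *Axin2*, *Myc* and *Znrf3* are below 0 in all 3 tissues, and *Tnfrsf19* in non-tumor colon is the farthest from 0 at -1.22.

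In non-tumor colon 0 members were called higher and 0 lower by either test of edgeR, by DESeq2 or by limma-voom. In the whole table of 14933 genes, the quasi-likelihood test called 0% higher and 0% lower and limma-voom called 0 genes, while the likelihood-ratio test called 81 and DESeq2 called 169. The strains overlapped for all 10 members, where 5.14% of all genes did not. At an unadjusted p under 0.05 there were 1377 of the 14933 genes and 5 of 10 members, all with lower values with BF BSHhigh: *Tnfrsf19* (log2 -1.22, SE 0.38, adjusted p = 0.408), *Ascl2* (-0.84), *Rnf43* (-0.45), *Axin2* (-0.35) and *Myc* (-0.31). For *Tnfrsf19*, *Ascl2* and *Axin2*, 3 of 4 BF BSHhigh libraries lay below every BF BSHlow library. The share of all genes with such a partial separation was not counted. The remaining values were between -0.48 for *Nkd1* and 0.29 for *Lgr5*, which was -0.12 without replicate 4 of BF BSHhigh.

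After 2 weeks 0 members were called higher and 0 lower by either test of edgeR, by DESeq2 or by limma-voom. Of all 13752 genes, the quasi-likelihood test called 0.00727% higher and 0% lower, which is 1 gene, limma-voom also called 1, and the likelihood-ratio test and DESeq2 called 52 each. The values ran from -0.40 for *Ascl2* to 0.63 for *Nkd1* (plus or minus 2 SE from -0.04 to 1.30). *Axin2* alone of the members had an unadjusted p under 0.05 (log2 -0.35, adjusted p = 0.725), as did 935 of all genes. The strains overlapped for all 10 members, and 3.38% of all genes did not overlap.

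In each of these 3 comparisons the mean CPM of *Axin2*, *Myc* and *Znrf3* was lower with BF BSHhigh, and none was called. No other member kept the same direction in all 3. How many of all genes did so was not counted, so this cannot be read as a trait of these members. The comparisons share no library, but the labels do not tell whether tumors and non-tumor colon came from the same mice. *Axin2* was at 0.727, 0.789 and 0.789 times the mean CPM of BF BSHlow in tumors, non-tumor colon and 2-week colon, *Myc* at 0.774, 0.812 and 0.957 times and *Znrf3* at 0.779, 0.946 and 0.956 times. Under the alternatives the log2 difference of *Axin2* stayed between -0.62 and -0.33 in tumors, -0.41 and -0.26 in non-tumor colon and -0.52 and -0.24 at 2 weeks, with adjusted p from 0.102 to 0.992. With single libraries left out, *Myc* turned positive at 2 weeks and *Znrf3* in non-tumor colon and at 2 weeks. *Ccnd1* was at 0.732 times in tumors and 1.14 times in non-tumor colon.

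The interaction of strain and tissue asks whether the effect of BF BSHhigh differed between tumors and non-tumor colon. For the members, 0 were called higher and 0 lower by either test of edgeR, by DESeq2 or by limma-voom. Of all 16454 genes, the quasi-likelihood test called 0.978% higher and 0.0122% lower, 163 genes in all, where the likelihood-ratio test called 472, DESeq2 414 and limma-voom 0. The values were highest for *Tnfrsf19* (log2 1.28, SE 0.57, adjusted p = 0.478) and *Ascl2* (0.89, SE 0.40, adjusted p = 0.501), which had an unadjusted p under 0.05 as did 1580 of all genes, and lowest for *Ccnd1* (-0.62, SE 0.32, adjusted p = 0.578).

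Non-tumor colon at 12 weeks was also compared with normal colon at 2 weeks, where age, feeding, colonization time and tissue composition changed together and cannot be told apart. Higher were 4 of 10 members, against 33.0% of all 15532 genes tested, and 1 was lower, against 30.2%. *Nkd1* rose 5.32-fold (log2 2.41, SE 0.25, adjusted p = 7.89e-07). It had 1.14, 1.25, 1.42 and 1.76 CPM with BF BSHlow and 1.54, 3.31, 2.30 and 1.52 CPM with BF BSHhigh at 2 weeks, all below the lowest non-tumor library at 4.89 CPM. The highest *Nkd1* value of the non-tumor libraries, in replicate 4 of BF BSHlow, came with the lowest smooth muscle sum of these libraries (1513 CPM).

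Among the 8 non-tumor libraries that library held the most counts of many genes that rose strongly in tumors. It had 92 of *Notum* against 0 to 20 and 221 of *Apcdd1* against 33 to 51. It had 242 of *Wif1* against 30 to 95 and 184 of *Mmp7* against 5 to 105. The highest non-tumor counts of *Prox1*, *Dkk2*, *Lgr6*, *Wnt10a* and *Wnt7b* were in it as well. It held the fewest of others, with 334 of *Cd44* against 435 to 917 and 781 of *Ephb2* against 802 to 1204, and also of *Ephb3* and *Birc5*. Without it, the log2 fold change of *Nkd1* over 2-week colon was 2.27 (adjusted p = 1.07e-06). *Znrf3* rose by 0.48 on the log2 scale (SE 0.11, adjusted p = 0.00135), *Rnf43* by 0.25 (SE 0.09, adjusted p = 0.0249) and *Sox4* by 0.25 (SE 0.10, adjusted p = 0.0363). *Rnf43* and *Sox4* were no longer called with a replicate block (adjusted p = 0.0622 and 0.0616), and *Rnf43* also not without that library (0.0505).

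*Lgr5* fell by 0.85 on the log2 scale (SE 0.22, adjusted p = 0.00352), from 11.6 ± 2.78 CPM with BF BSHlow and 9.34 ± 1.49 CPM with BF BSHhigh at 2 weeks to 5.24 ± 1.84 and 6.45 ± 3.32 CPM at 12 weeks (SD, n = 4 each). When scaled to epithelial markers it was not called (-0.39, adjusted p = 0.131), and *Axin2* and *Myc* were called higher (0.50 and 0.58), as they were with library size scaling (0.30 and 0.39). *Axin2* was at 0.04, *Myc* at 0.14, *Ccnd1* at -0.19 and *Ascl2* at -0.15 under TMM scaling and not called. *Ccnd1* and *Ascl2* turned positive with library size scaling (0.06 and 0.11) and with epithelial scaling (0.28 and 0.29).

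Other genes of the pathway were followed in 4 lists for tumors against non-tumor colon, where 37.3% of all genes were called higher and 34.9% lower. Of 23 other WNT targets, 19 were called higher and 3 lower (*Edn1*, *Rgmb* and *Nkd2*), with a median log2 fold change of 2.66. *Notum*, a secreted enzyme that inactivates WNT ligands, had 0 to 5.94 CPM in non-tumor colon and 150.2 to 338 CPM in tumors. *Mmp7*, a matrix metalloproteinase, went from between 0.341 and 11.9 CPM to between 204 and 649 CPM, and the secreted or membrane inhibitors *Apcdd1* and *Wif1* rose by 6.36 and 6.34 on the log2 scale. The lower *Nkd2*, the paralog of *Nkd1*, had 4.13 to 13.2 CPM in non-tumor colon and 2.24 to 3.84 CPM in tumors (log2 -0.87, SE 0.25, adjusted p = 0.00595).

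Of 17 intracellular components, 10 were called higher and 3 lower, against 37.3% and 34.9% of all genes, with a median of 0.25. *Apc* fell by 2.92 on the log2 scale (SE 0.19, adjusted p = 1.10e-08), from between 87.7 and 190.3 CPM to between 8.75 and 28.6 CPM, and counts per gene do not separate the floxed exon from the rest. *Tcf7l1* (-2.39) and *Tcf7l2* (-1.29), which encode TCF factors, fell as well. *Ctnnb1*, which encodes beta-catenin, rose by 0.69 (SE 0.08, adjusted p = 1.89e-06) and *Pygo1*, a nuclear cofactor of beta-catenin, by 1.34.

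**Figure D5:**
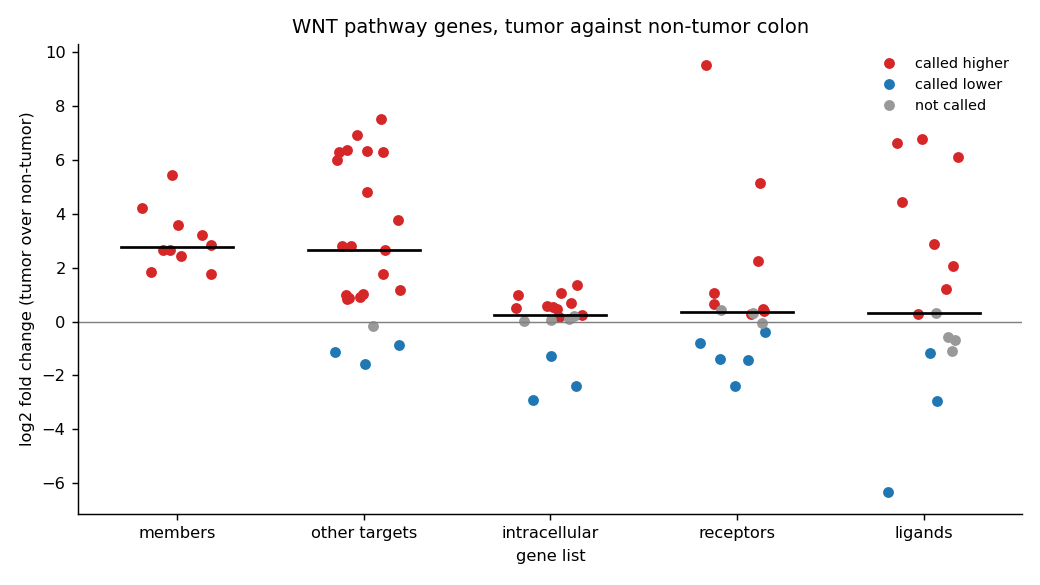
Log2 fold change in tumors over non-tumor colon of the 10 members and of the tested genes of 4 other WNT lists, with red for called higher, blue for called lower and grey for not called, and a black bar at the median of each list. The medians are 2.77 for the members, 2.66 for other targets, 0.25 for intracellular components, 0.34 for receptors and 0.30 for the ligand list, which includes *Porcn* and *Wls*. Fitted values of genes near 0 counts in 1 tissue (*Lgr6*, *Wnt10a*, *Wnt7b*, *Rspo1*) depend on the prior count.

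Of 16 receptors, 8 were called higher and 5 lower (*Fzd5*, *Lgr4*, *Fzd8*, *Lrp6* and *Fzd4*). For this list and the ligands below, the shares of all genes were 37.3% higher and 34.9% lower. *Lgr6*, a relative of *Lgr5*, had 0 to 10 counts in the 8 non-tumor libraries and 433 to 1278 counts in the 7 tumors. The Frizzled receptors moved both ways, with *Fzd10* at 5.15 and *Fzd3* at 2.26 and *Fzd5* at -2.38. The ligand list also holds *Porcn* and *Wls*, which act in WNT secretion and are not ligands. Of its 19 genes 15 were tested (not *Wnt2*, *Wnt9b*, *Rspo2* and *Rspo4*, which had too few counts). Of these, 8 were called higher and 3 lower (*Rspo1*, *Rspo3* and *Wnt4*). *Wnt10a* had 0 to 23 counts in non-tumor colon and 403 to 2102 in tumors, *Wnt7b* had 0 to 4 and 50 to 364, and *Rspo1* had 2 to 32 and 0 to 1. *Wnt6* rose by 6.12 on the log2 scale (SE 0.50, adjusted p = 6.89e-08).

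All 6 proliferation markers rose in tumors, by 0.75 to 1.75 on the log2 scale with a median of 1.30, and *Mki67* by 0.77 (SE 0.19, adjusted p = 0.00185). *Cdx2*, the intestinal transcription factor whose promoter drives the Cre, had 307 to 418 CPM at 2 weeks, 6.34 to 60.5 CPM in non-tumor colon and 0.257 to 27.6 CPM in tumors. With BF BSHhigh against BF BSHlow in tumors, edgeR called 0 genes higher and 0 lower in any of the 4 lists, and 7 other targets, 3 intracellular components, 2 receptors and 2 ligands (of 23, 17, 16 and 13 tested) had an unadjusted p under 0.05, beside 1946 of all 15325 genes. DESeq2 called *Apc* and *Mmp7* higher and *Bambi*, *Dkk2*, *Wnt7b* and *Wls* lower, the likelihood-ratio test of edgeR called the same genes but *Wls*, and limma-voom called 0. By edgeR *Apc* was at 1.04 (SE 0.27, adjusted p = 0.140) and *Mmp7* at 1.08 (SE 0.24, adjusted p = 0.0918), while *Ctnnb1* was at -0.22, *Mki67* at -0.11 and *Cdx2* at 3.54 (SE 0.99, adjusted p = 0.174).

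The genes whose pattern over the 23 libraries was most like that of *Axin2*, by the root mean square difference of centred log2 CPM among 16753 genes, which counts the size of a change as well as its pattern, were *Plxnb1* (0.224), *Tmem132a* (0.294), *Sox4* (0.299), *Rgs12* (0.313) and *Vangl2* (0.324). *Plxnb1* had 8.26 to 16.6 CPM outside tumors and 79.5 to 173.5 CPM in tumors. Of the other members, *Rnf43* came 29th, *Tnfrsf19* 59th, *Znrf3* 64th, *Ascl2* 181st, *Myc* 486th, *Ccnd1* 628th, *Lgr5* 666th and *Nkd1* 8314th in this order.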

How the data were processed

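The submitters' processing notes name cutadapt, STAR, Picard, RSEM and the build mm10, and the authors deposited RSEM expected counts of each gene without normalization. Their versions are not given in the sources used here, and the library preparation is total RNA in the labels and mRNA in the methods. In the deposited counts, 4.24% of values were not whole but none of the members', and all were rounded. A blank row and a row with text were left out. The 3 columns of the BF BSHhigh tumors repeat header names of BF BSHlow tumors, and they were assigned as a group through a supplementary table. For each of these 3 columns, all 1996 genes compared differed from it by less than a whole count. Gene identifiers and symbols matched GENCODE M21 for 55449 of 55449 genes. The library kits named are stranded, but whether the counting used strand is not given in the sources used here. The spans of *Axin2*, *Ccnd1*, *Lgr5*, *Sox4*, *Rnf43* and *Tnfrsf19* overlap a gene on the opposite strand. If the counting did not use strand, reads from any shared exon bases could not be told apart. Whether exons overlap was not checked. *Nkd1* and *Rnf43* also overlap an annotated gene on their own strand.

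Counts were tested with edgeR 4.0.16 (R 4.3.3, quasi-likelihood) after filterByExpr and TMM scaling (prior count 2 for log2 CPM), with p-values adjusted by Benjamini-Hochberg over all genes tested. Tumor against non-tumor contrasts and the interaction used the 15 libraries of 12 weeks, strain comparisons the libraries of the 2 groups compared, and the comparison of ages 16 libraries. Standard errors are the log2 fold change divided by the square root of F. Other tools tried were limma-voom (limma 3.58.1), DESeq2 1.42.0 and edgeR's likelihood-ratio test, beside 4 other scalings, 2 other filters, a log2 fold change limit of 1, other sets of libraries, a block for the replicate number and fits with 1 library omitted. Each tool was checked on simulated data. Between replicates, the chi-square per degree of freedom was 16.6 to 126, so that none were counted as 1 sample. Python 3.11.15, pandas 2.3.3, numpy 2.4.6 and matplotlib 3.10.9 were used for tables and figures.

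The members and lists were chosen with earlier results of these data known. By rule the text names all members, up to 4 called genes with the largest change in each of 4 WNT lists, *Apc*, *Ctnnb1*, *Mmp7*, *Mki67* and *Cdx2*, and the 5 genes most like *Axin2*. Other genes, among them *Nkd2*, *Dkk2*, *Cd44*, *Ephb2* and those called lower in the lists, were named after their values were seen.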

Additional observations from a re-analysis of the deposited data

Results flagged for a closer look

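Among 50 groups of 4 libraries (10 members in 5 groups), 3 held a library farther from the others than Dixon's 95% limit, and chance flags about 1 in 20. *Axin2* in replicate 3 of the BF BSHlow tumors had 281 CPM against 347 to 355 CPM in the other replicates (ratio of gap to range 0.895). *Lgr5* in replicate 2 of BF BSHlow at 2 weeks had 15.8 CPM against 10.05 to 10.6 CPM (0.911). *Ascl2* in replicate 1 of BF BSHlow non-tumor colon had 2.45 CPM against 4.41 to 4.70 CPM (0.870).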

How the results depend on the processing

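All 10 members stayed called in tumors over non-tumor colon, and none was called between strains or for the interaction, under every alternative run. Over all comparisons, 1709 of 1780 gene results kept their direction and side of the threshold, 45 changed sign, 22 were no longer called and 4 became called. In non-tumor colon against 2-week colon, the 4 members called higher became 2 with a replicate block, 1 with a log2 limit of 1, 6 with library size scaling or epithelial scaling (*Axin2* and *Myc* gained), 3 with no filter or all 23 libraries in the fit (*Sox4* lost, adjusted p = 0.0626 and 0.0510), and 2 to 4 with a library left out (2 without replicate 3 of BF BSHlow, or replicate 2 or 3 of BF BSHhigh, non-tumor colon). The 1 called lower became 0 with epithelial scaling and 0 with the log2 limit. *Sox4* lost its call in 8 and *Rnf43* in 5 of 16 such fits. Libraries with the same replicate number were weakly correlated (r from -0.17 to 0.26 over 20 pairs), but most of these pairs joined different strains or ages. For BF BSHlow tumors with non-tumor colon, r was 0.16, -0.08, 0.02 and 0.11 in replicates 1 to 4. These values cannot show whether a number marks the same mouse. The replicate block changed no other call, and no paired analysis was possible for the BF BSHhigh tumors because their columns carry no numbers.

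Sign changes were in values not called. Epithelial scaling gave -0.17 for *Tnfrsf19* between strains in tumors, -0.14 for *Rnf43* at 2 weeks, -0.013 for *Nkd1* and -0.018 for *Rnf43* in the interaction, and 0.28 for *Ccnd1* and 0.29 for *Ascl2* in the comparison of ages. Library size scaling gave -0.056 for *Rnf43* at 2 weeks and 0.059 for *Ccnd1* and 0.11 for *Ascl2* between ages, and upper-quartile scaling -0.00094 for *Rnf43* at 2 weeks. With single libraries left out, the strain difference in tumors ran from -0.11 to 0.17 for *Ascl2*, -0.51 to 0.0042 for *Nkd1* and -0.17 to 0.42 for *Tnfrsf19*. In non-tumor colon it ran from -0.12 to 0.48 for *Lgr5*, -0.018 to 0.12 for *Sox4* and -0.14 to 0.040 for *Znrf3*. At 2 weeks the ranges were -0.14 to 0.011 for *Myc*, -0.059 to 0.090 for *Rnf43*, -0.14 to 0.017 for *Znrf3* and -0.27 to 0.043 for *Tnfrsf19*. The interaction ran from -0.26 to 0.048 for *Axin2*, -0.17 to 0.063 for *Myc*, -0.098 to 0.55 for *Lgr5* and -0.11 to 0.49 for *Nkd1*, and the comparison of ages from -0.0039 to 0.097 for *Axin2*, -0.30 to 0.038 for *Ascl2* and -0.067 to 0.19 for *Tnfrsf19*. The cause of these shifts was not tested.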
